A study of Mus musculus and Acomys cahirinus with 25 samples.

Results

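Hyaluronan is a long sugar polymer of the matrix between cells, and the 8 genes described here make it, cut it, bind it and organize it. They are the synthase genes Has1, Has2 and Has3, the hyaluronidase genes Hyal1 and Hyal2, the receptor genes Cd44 and Lyve1, and Tnfaip6, whose protein TSG-6 is secreted and binds hyaluronan. They were chosen by gene symbol for their roles, with earlier results of these data known, and are 8 of the 24500 genes with a row in the count files. All 8 were found in all 25 libraries.

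The synthases sit in the plasma membrane and extrude the growing chain from UDP-sugars made in the cytoplasm. HYAL2 and HYAL1 cleave the chain, HYAL2 at the cell surface and HYAL1 in lysosomes, and CD44 is the main cell surface receptor, carried by keratinocytes, fibroblasts and leukocytes. LYVE1 marks lymphatic endothelium and some tissue macrophages, and TSG-6 moves the heavy chains of inter-alpha-inhibitor onto hyaluronan, which crosslinks it. Skin holds much of the body's hyaluronan, and wounds make more of it.

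RNA-seq was made from the skin of healing full thickness wounds of a pair of species, the laboratory mouse (mainly C57BL/6J, wounded at 4 weeks of age) and the spiny mouse Acomys cahirinus (wounded at 8 weeks of age). The laboratory mouse libraries were all of post-wound day 14 (PWD14) and were 2 of wound center epidermis, 2 of wound margin epidermis, 5 of wound center dermis and 2 of wound margin dermis, all wild type, and 2 of wound center dermis of K14-Cre-Twist1 mice. The center was a punch biopsy from the middle of the wound and the margin was what remained of it. In K14-Cre-Twist1 mice the Cre recombinase is driven by a keratin 14 promoter and removes the conditional Twist1 gene in keratinocytes, so that the dermis sequenced here is not the tissue in which the gene was deleted. Wild-type wound center dermis replicates 1 and 2 served for center against margin and replicates 3 to 5 as controls of the K14-Cre-Twist1 dermis. This division follows the library names that the study lists for each comparison. The study names wild type Twist1+/+ mice as controls of its transgenic mice, so the controls and the other wild-type libraries may differ in origin, which the labels do not give. The spiny mouse libraries were all wild type and of the whole wound area, with 1, 2, 2 and 1 of epidermis and 2, 1, 2 and 1 of dermis at PWD0, PWD14, PWD21 and PWD28. PWD0 libraries hold skin from before wound healing, so that each comparison with PWD0 sets a healing wound against such skin. The days are those of the labels, and the sample list of the study gives slightly different later days for the same spiny mouse libraries. The study describes replicate libraries as independent experiments, the labels name no animals, and the p-values measure the spread between these libraries.

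Between 19413261 and 86532134 reads fell on genes in the laboratory mouse libraries, and between 5669760 and 34751956 in the spiny mouse libraries. Expression is given as CPM, the counts of a gene divided by all gene counts of its library and scaled to a total of 1000000, and a count of 3, taken as the smallest detectable amount, was 0.0347 to 0.155 CPM in laboratory mouse and 0.0863 to 0.529 CPM in spiny mouse libraries. Such floors cover counting error only. Where a gene was at 0 in a whole group, the fold given as "at least" is the other group's mean CPM over the highest floor of the group at 0. It leaves out the spread of that mean and uses CPM without the scaling factors of the tests. A laboratory mouse library had 20 to 2244 genes at 0 that held 20 or more counts in another library of its group, against 0 to 76 in the spiny mouse, so that a 0 there, and a bound on a fold set from it, need not reflect depth alone. Spiny mouse reads had been aligned to the mouse genome, with 38.0% to 60.5% of them set aside for low alignment quality against 23.3% to 34.4% in the laboratory mouse, and levels are therefore not compared between the species. Summed keratinocyte markers reached 42126 to 215519 CPM in epidermis libraries and 13.7 to 35765 CPM in dermis libraries, and summed fibroblast markers 68373 to 161893 CPM in dermis and 238 to 5825 CPM in epidermis. Replicate 2 of the K14-Cre-Twist1 dermis stood apart, with 35765 CPM of keratinocyte markers against 13.7 to 1034 CPM in the other wound center dermis libraries. The wound margin epidermis pair also differed, with a chi-square per degree of freedom of 375 over all genes against 34.6 in the wound center epidermis pair, where counting noise alone gives about 1. Twist1 itself was at 44.0 to 73.4 CPM in the K14-Cre-Twist1 dermis and at 36.3 to 159 CPM in the wild-type wound center dermis, which does not check the deletion because the deleted tissue is the epidermis.

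**Figure D1:**
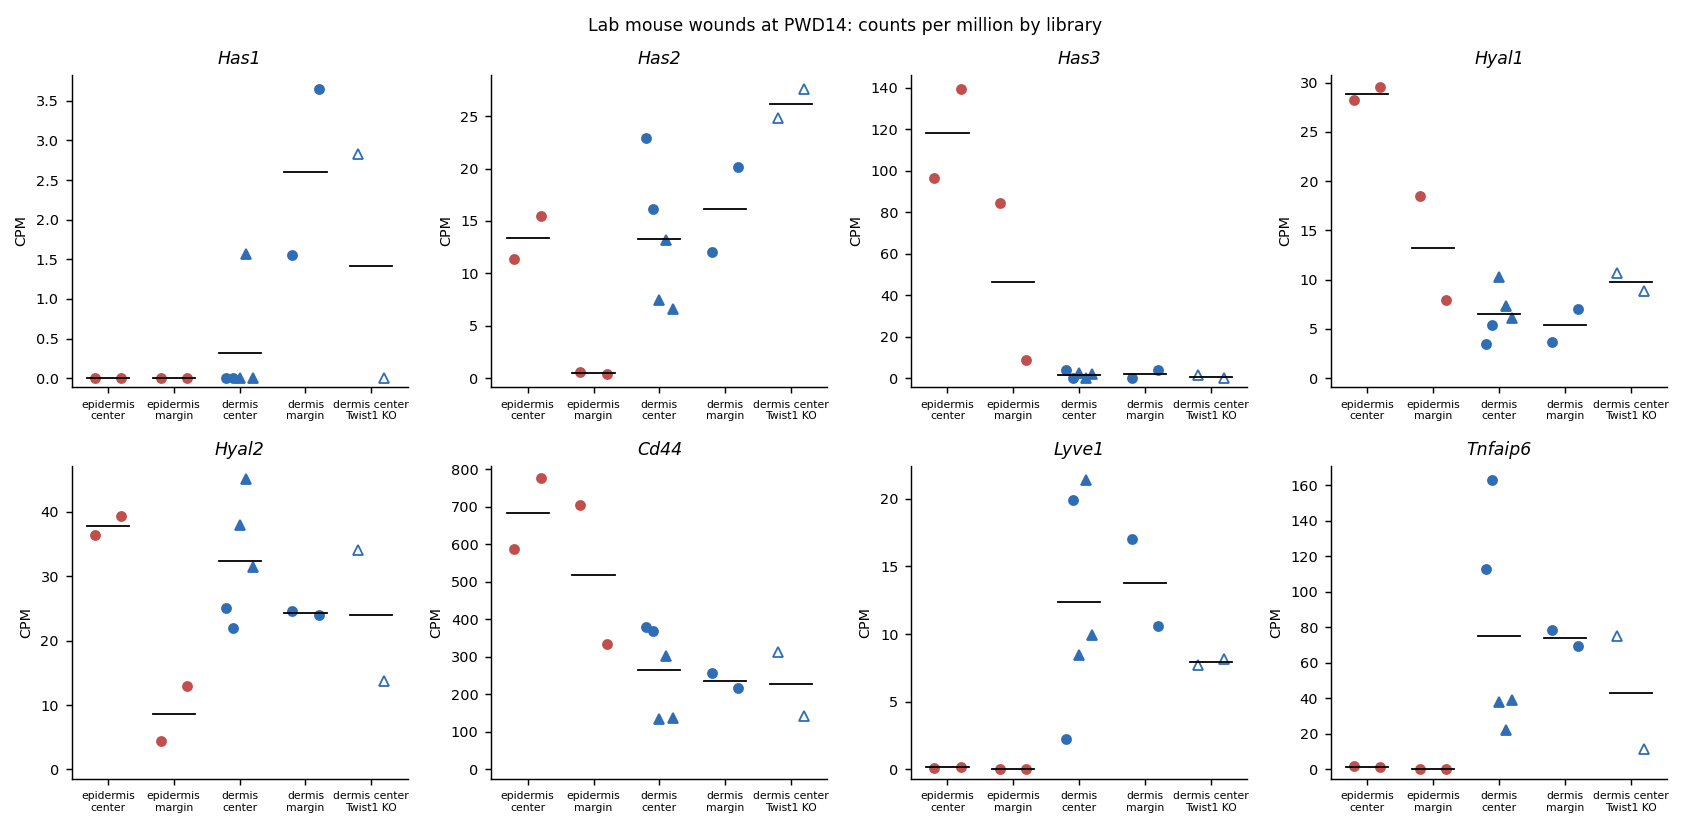
CPM of the 8 genes in each laboratory mouse library at PWD14, 1 panel a gene, with circles for the center and margin libraries, triangles for the libraries of the genotype comparison, open symbols for K14-Cre-Twist1 and a black line at the mean of each group. Has3 and Hyal1 sit highest in the epidermis, Tnfaip6 and Lyve1 in the dermis, and Has2 is near 0 only in the 2 wound margin epidermis libraries, at 0.624 and 0.416 CPM.

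**Figure D2:**
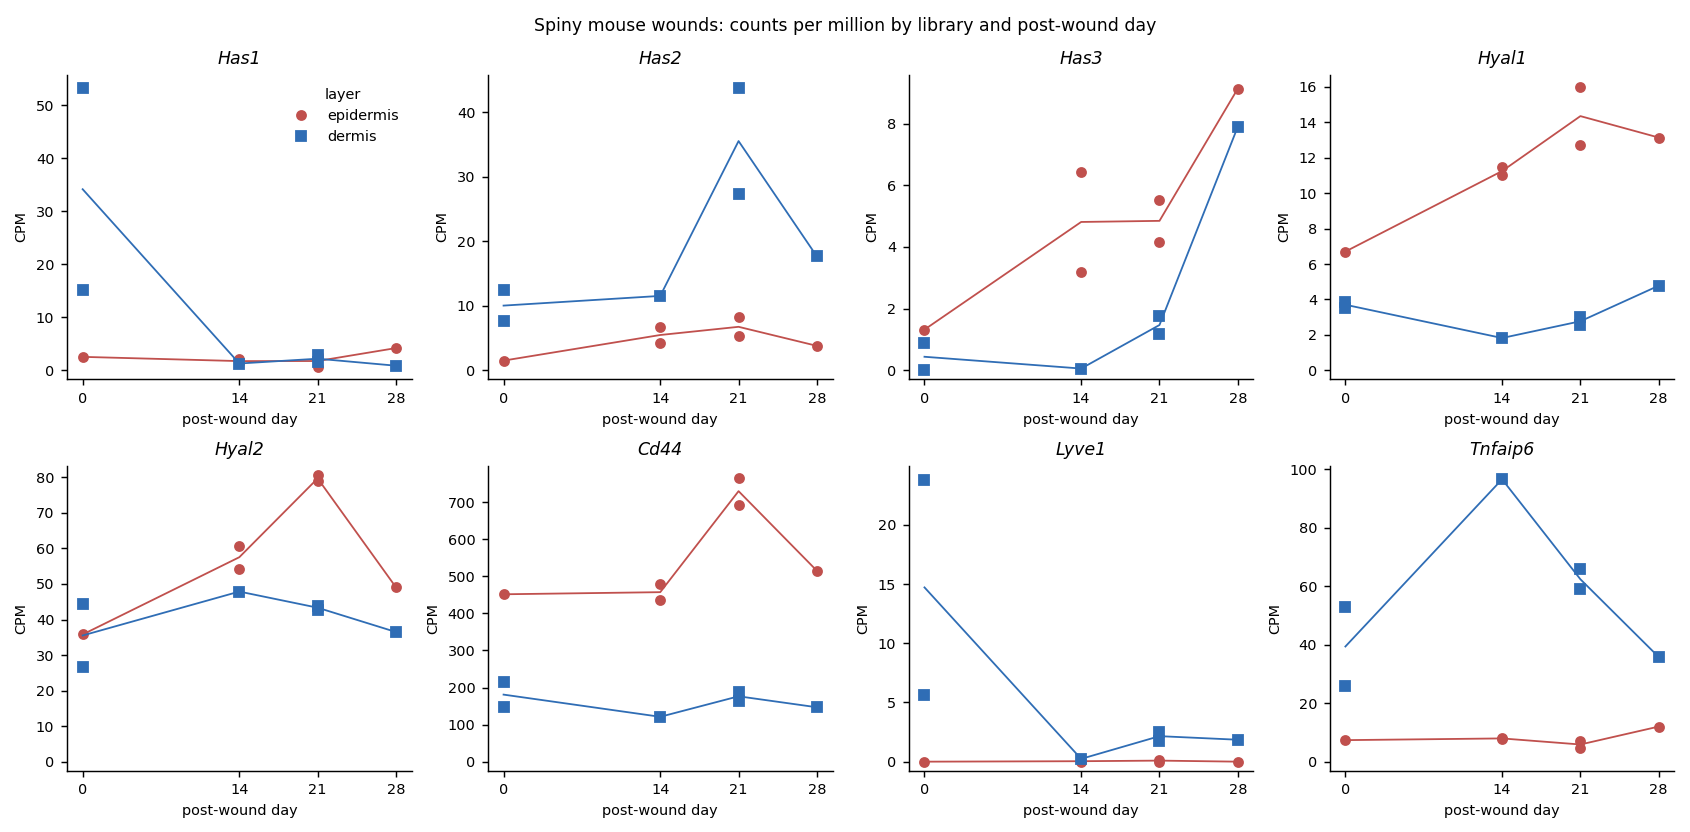
CPM of the 8 genes in each spiny mouse library by post-wound day, 1 panel a gene, with circles for epidermis, squares for dermis and lines joining the means of the days. Has1 of the dermis was at 15.2 and 53.2 CPM at PWD0 and at most 2.85 CPM on later days, while dermal Has2 was highest at PWD21, at 43.7 and 27.3 CPM.

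The largest contrast among the 8 genes was between the skin layers. Here and below, genes were tested with edgeR's quasi-likelihood test, FDR is its Benjamini-Hochberg adjusted p over all genes tested, a call is an FDR under 0.05, and log2 fold changes are given with their standard errors. In the wound center of the laboratory mouse, 6 of the 7 members tested were called between epidermis and dermis, against 54.6% of all 14329 genes tested, 4 of them higher in the epidermis (29.7% of all genes) and 2 lower (24.9%). In the wound margin 6 of 8 were called, against 39.6% of all genes, 2 higher (17.8%) and 4 lower (21.8%). At PWD21 of the spiny mouse, 7 of 8 were called, against 62.4%, 4 higher in the epidermis (29.1%) and 3 lower (33.2%). The median log2 fold change of the members was 1.47, -2.39 and 0.43 in these 3 comparisons, and that of all genes tested 0.05, -0.17 and -0.06. Both laboratory mouse comparisons set paired-end epidermis libraries against single-end dermis libraries, so that layer and read type cannot be told apart there. Both spiny mouse layers were read single-end.

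Within a layer, fewer members passed. For spiny mouse dermis, PWD21 against PWD0 called 3 of 8, 1 higher at PWD21 (11.9% of all genes) and 2 lower (13.9%), against 25.8% of all genes in either direction, and PWD14 against PWD0 called 3 of 8, 1 higher (10.9%) and 2 lower (13.1%), against 24%. For spiny mouse epidermis, PWD14 against PWD0 called 3 of 8, all higher at PWD14 (15.5% of all genes), against 33.7% in either direction, and PWD14 against PWD21 called 1 of 7, higher at PWD14 (22.3%), against 44.4%. The median log2 fold changes of the members in these 4 comparisons were 0.04, -0.56, 1.43 and 0.23, and those of all genes 0.03, -0.06, -0.13 and -0.04. The third becomes 1.40 when Lyve1, at 0 in the PWD0 library, is left out. The comparisons against PWD0 share their PWD0 libraries and rest on 1 library at PWD14 of the dermis and at PWD0 of the epidermis, which is assumed to vary like the other spiny mouse groups.

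Between center and margin epidermis of the laboratory mouse edgeR called 0 of 6 members, where it also called 0 of the 14165 genes (0%). Of these genes 20.4% had an unadjusted p under 0.05, and 3 of the 6 members did, while DESeq2 called 3 members and 11.1% of genes. In center against margin dermis edgeR called 0 of 8 members and 0.367% of genes, with 3 members at an unadjusted p under 0.05 (13.2% of genes), and DESeq2 called 3 (5.02% of genes). In K14-Cre-Twist1 against wild-type dermis edgeR called 0 of 8 members and 0.0141% of genes, with 1 member at an unadjusted p under 0.05 (8.32% of genes), and DESeq2 called 1 (5.56% of genes). The members' median log2 fold changes were 1.62, 0.14 and 0.30, beside 0.000376, -0.03 and -0.06 over all genes. Center and margin libraries of the epidermis did not overlap for 5 of the 6 members tested, all higher in the center, as for 35.8% of all genes.

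**Figure D3:**
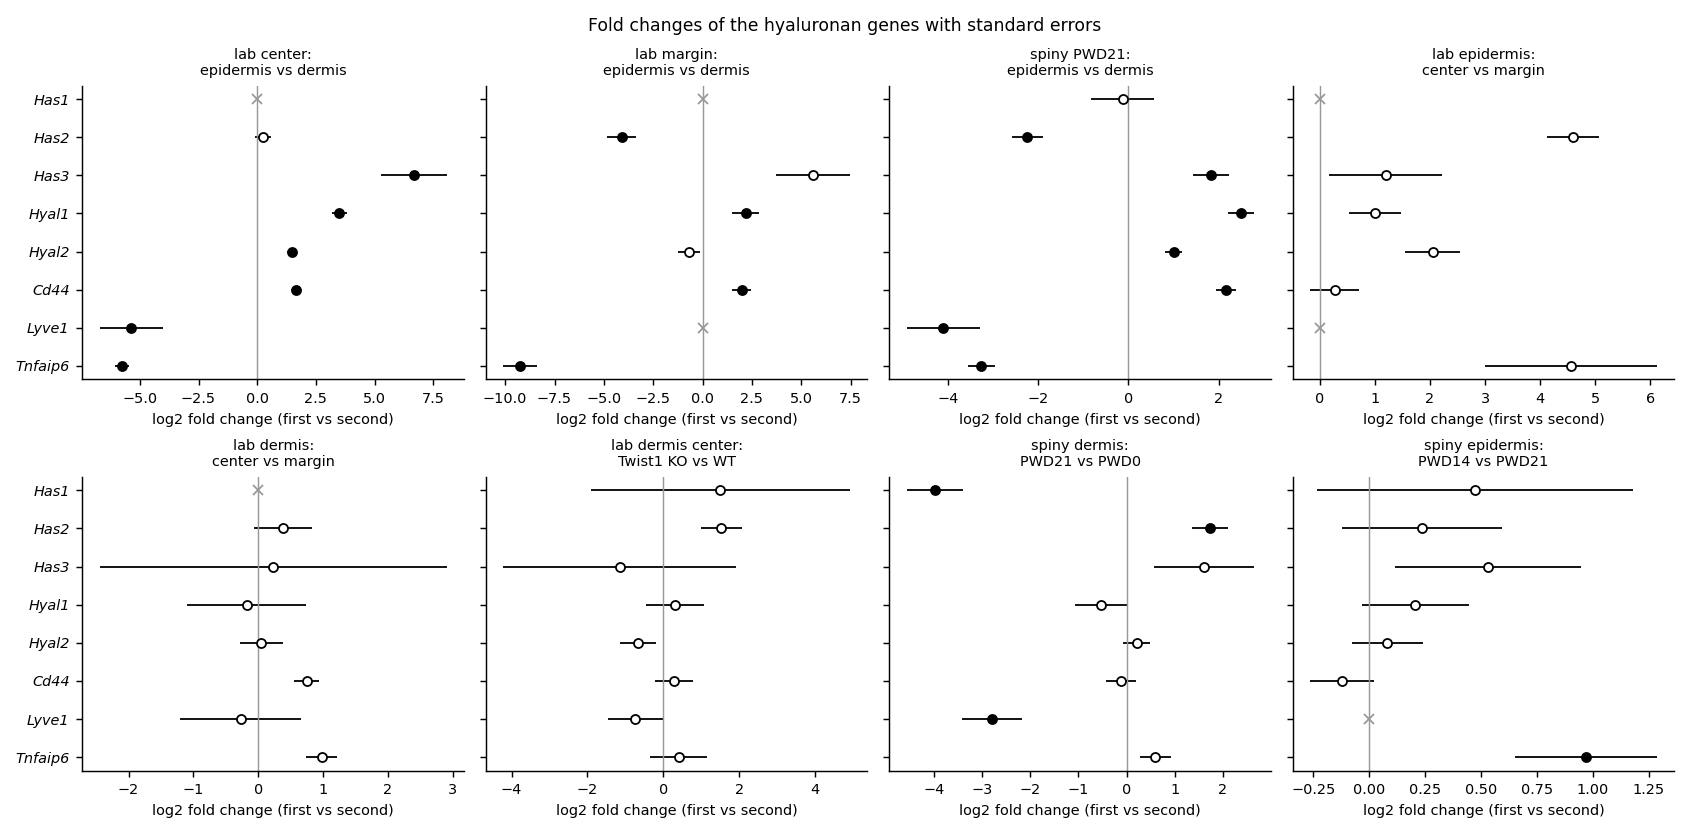
Log2 fold change of each of the 8 genes in each comparison, with bars of 1 standard error, filled symbols for an FDR under 0.05 by edgeR's quasi-likelihood test, open symbols otherwise, and grey crosses where no fold is given because the gene was not tested or was at 0 in a whole group. Tnfaip6 lies on the dermis side and Hyal1 on the epidermis side in all 3 layer comparisons, with log2 fold changes of -5.74, -9.25 and -3.26, and of 3.50, 2.18 and 2.49.

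Among the synthases, Has2 makes long chains and is the form needed for the embryonic heart. The gene is on the minus strand of chr15:56665627-56694546 (GRCm38). In the laboratory mouse epidermis Has2 was at 11.3 and 15.5 CPM in the center and at 0.624 and 0.416 CPM in the margin. Both center libraries stood above both margin libraries, with a log2 fold change of 4.60 ± 0.47 or 24.3-fold and an FDR of 0.0687. The 4 fits without 1 library gave log2 fold changes from 4.27 to 4.97, and DESeq2 on all libraries called Has2 with an adjusted p of 3.87e-14. A fit left with 1 library in a group takes no spread from that group, so its calls are no support. Without 1 library edgeR called 178 to 8324 genes in this comparison in place of 0.

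In the dermis, the center was not set apart from the margin in the same way. Has2 was at 22.9 and 16.2 CPM in the center libraries compared with the margin and at 12.1 and 20.2 CPM in the margin libraries. The groups overlapped, with a log2 fold change of 0.38 ± 0.45 (FDR 0.818). The center-margin difference of the epidermis minus that of the dermis was 4.35 ± 0.70 on the log2 scale (FDR 0.0154), the only one of the 8 members called in that test, which called 3.29% of all genes and gave a median of 0.32 over them. The median of the 8 members was 2.79, and that of the 6 with no group wholly at 0 was 1.74. The median over all genes leaves out no gene for a group at 0. The call rested on single libraries, since without replicate 2 of the wound center epidermis the difference was 4.11 (FDR 0.0749) and without replicate 2 of the wound margin dermis 3.86 (FDR 0.0694). Between the layers, Has2 of the wound center gave a log2 fold change of 0.23 ± 0.34 for epidermis against dermis (FDR 0.604, and -0.55 with library size scaling alone). In the margin the log2 fold change was -4.10 ± 0.73, lower in the epidermis (FDR 0.00909, and 0.106 without replicate 2 of the margin dermis). Summed fibroblast markers were 4812 and 5825 CPM in the center epidermis, 710 and 2136 CPM in the margin epidermis and 100824 to 152082 CPM in the wild-type dermis, and their part in the Has2 difference was not tested. Fewer cells of a type and less RNA per cell cannot be told apart in these bulk libraries.

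In the K14-Cre-Twist1 dermis Has2 was at 24.8 and 27.6 CPM, and the 3 wild-type libraries of that comparison were at 7.41, 13.2 and 6.64 CPM. Both K14-Cre-Twist1 libraries lay above all 5 wild-type wound center libraries, the highest of which was at 22.9 CPM. The log2 fold change was 1.53 ± 0.54 with an FDR of 0.567, and 1.01 with an FDR of 0.665 against all 5 wild-type libraries, while DESeq2 gave an adjusted p of 0.0176. The division of the wild-type libraries moved with Has2, since replicates 1 and 2 (22.9 and 16.2 CPM) and replicates 3 to 5 (6.64 to 13.2 CPM) did not overlap.

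Dermal Has2 of the spiny mouse was at 7.58 and 12.5 CPM at PWD0, 11.5 at PWD14, 43.7 and 27.3 at PWD21, with 17.7 at PWD28. It rose from PWD0 to PWD21 by 1.73 ± 0.37 on the log2 scale (FDR 0.0105), a call that was lost without replicate 1 of PWD21 (1.41, FDR 0.0989). From PWD0 to PWD21 summed cell type markers of the dermis differed as well. Fibroblast markers went from 100657 and 68373 CPM to 126797 and 161893, keratinocyte markers from 12757 and 8846 to 775 and 1390, adipocyte markers from 968 and 936 to 249 and 122, and blood endothelial markers from 92.6 and 204 to 442 and 610, with no marker of these lists at 0. Their part in the dermal values of Has2, Has1 and Lyve1 was not tested. In the epidermis Has2 was at 1.51 CPM at PWD0, then 4.26 and 6.70 at PWD14, 8.25 and 5.25 at PWD21, with 3.80 at PWD28, and PWD14 was higher than PWD0 by 2.57 ± 0.59 (FDR 0.00842). The summed neutrophil markers of the epidermis went from 0.944 CPM at PWD0 to 2503 and 1512 at PWD14 and to 408 and 181 at PWD21. In the PWD14 library at 2503 CPM 4 of the 6 were at 0 (S100a8, Csf3r, Ly6g and Retnlg), so that its sum rests on the remaining markers of the list. At PWD0 S100a8, Cxcr2 and Ly6g were at 0. The adipocyte list went from 38.0 CPM to 6303 and 5160 and to 1350 and 1053, with Lep at 0 in 5 of the 6 epidermis libraries. Plin1 was at 0 at PWD0, in replicate 1 of PWD14 and in both PWD21 libraries, and Cidec in replicate 2 of PWD14. The adipocyte sums there rest on the remaining markers of the list. The part of the neutrophil and adipocyte markers in the epidermal values of Has2, Hyal1, Hyal2 and Tnfaip6 was not tested. At PWD21 Has2 was lower in epidermis than in dermis, with a log2 fold change of -2.24 ± 0.34 (FDR 0.000969), and the groups did not overlap. Spiny mouse libraries do not keep the strand, so that reads of Has2 and of its antisense gene Has2os cannot be told apart there. Has2os itself held 0 to 6 counts in spiny mouse libraries and 0 to 2.81 CPM in laboratory mouse libraries, where its difference was -2.04 ± 3.17 for K14-Cre-Twist1 against wild type (FDR 0.896) and 0.87 ± 2.20 for center against margin dermis (FDR 0.934).

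Has3, whose enzyme makes shorter chains, is on the plus strand of chr8:106870242-106882902 and was the main synthase of the laboratory mouse epidermis. It was at 96.5 and 139 CPM in the center epidermis, at 84.2 and 8.60 CPM in the margin epidermis and at most 3.85 CPM in the 9 dermis libraries, 4 of which held no read of it. Epidermis and dermis did not overlap in center or margin. The wound center difference was 6.66 ± 1.41 on the log2 scale (FDR 0.0163, and 0.0610 with all laboratory mouse libraries in 1 fit), and the wound margin difference was 5.59 ± 1.89 (FDR 0.0617). Center and margin epidermis did not overlap, with 96.5 against 84.2 CPM at the nearest. The log2 fold change of 1.20 ± 1.02 (FDR 0.547) became 3.75 without replicate 1 of the margin, which left 1 margin library. The margin replicates, at 84.2 and 8.60 CPM, were themselves far apart.

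Spiny mouse Has3 of the epidermis was at 1.32 CPM at PWD0, then 6.43 and 3.19 at PWD14, 5.53 and 4.17 at PWD21, with 9.13 at PWD28. The dermis held 0 and 0.882 CPM at PWD0, 0.0589 at PWD14, 1.19 and 1.76 at PWD21, with 7.90 at PWD28. At PWD21 the epidermis was higher by 1.83 ± 0.40 (FDR 0.00566), and at PWD28 the single libraries of the layers were at 9.13 and 7.90 CPM. From PWD0 to PWD14 the epidermis difference was 2.58 ± 0.92 with an FDR of 0.0540.

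Has1, a synthase gene known to respond to inflammatory signals, is on the minus strand of chr17:17833691-17855589. It held no read in the 4 laboratory mouse epidermis libraries. In the laboratory mouse dermis it was at 1.55 and 3.65 CPM in the margin, at 0 in both center libraries set against it, at 1.56 CPM in 1 and 0 in the other 2 wild-type controls, and at 2.82 and 0 CPM in K14-Cre-Twist1. Has1 was at least 16.8-fold lower in the 2 center libraries than in the margin dermis (FDR 0.245), while with all 5 wild-type center libraries the log2 fold change was -2.86 (FDR 0.647). It was at least 30.6-fold lower in the margin epidermis than in the margin dermis (FDR 0.0212). The latter call was lost without either margin dermis library (FDR 0.165 and 0.351) and with all laboratory mouse libraries in 1 fit (FDR 0.173).

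By reads aligned to the mouse genome, Has1 was the leading synthase of the spiny mouse dermis at PWD0 and not on later days. It was at 15.2 and 53.2 CPM at PWD0, 1.30 at PWD14, 1.55 and 2.85 at PWD21, with 0.878 at PWD28. Has1 fell from PWD0 to PWD21 by 3.97 ± 0.59 on the log2 scale (FDR 0.00228) and was lower at PWD14 than at PWD0, with a log2 fold change of -4.44 ± 1.08 (FDR 0.0154), calls that held in every alternative run. Keratinocyte, adipocyte, blood endothelial and fibroblast markers moved between the same libraries, as given for Has2. The PWD0 epidermis library held 2.55 CPM of Has1. In the other epidermis libraries Has1 was at 0.628 to 4.21 CPM, with no call between days or against the dermis at PWD21 (-0.13 ± 0.69, FDR 0.880).

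Levels of different genes were compared per kilobase of exon (GENCODE basic annotation). For the spiny mouse these are mouse exon lengths. How well reads of each gene aligned to the mouse genome was not tested, and spiny mouse orders and shares depend on it. Of the summed synthase CPM per kb, Has3 made 85.0% and 85.7% in the center and 98.9% and 93.2% in the margin epidermis of the laboratory mouse, and Has2 made 67.2% to 100% in the 9 dermis libraries. Of the spiny mouse dermis sum, Has1 made 80.2% and 89.2% at PWD0, and Has2 81.3% at PWD14, 91.8% and 79.8% at PWD21, with 71.5% at PWD28. The spiny mouse epidermis was mixed, with Has1 shares from 13.7% to 68.3%. The sum itself ranged from 1.45 to 25.5 CPM per kb in laboratory mouse epidermis and from 3.35 to 28.5 CPM per kb in spiny mouse dermis.

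**Figure D4:**
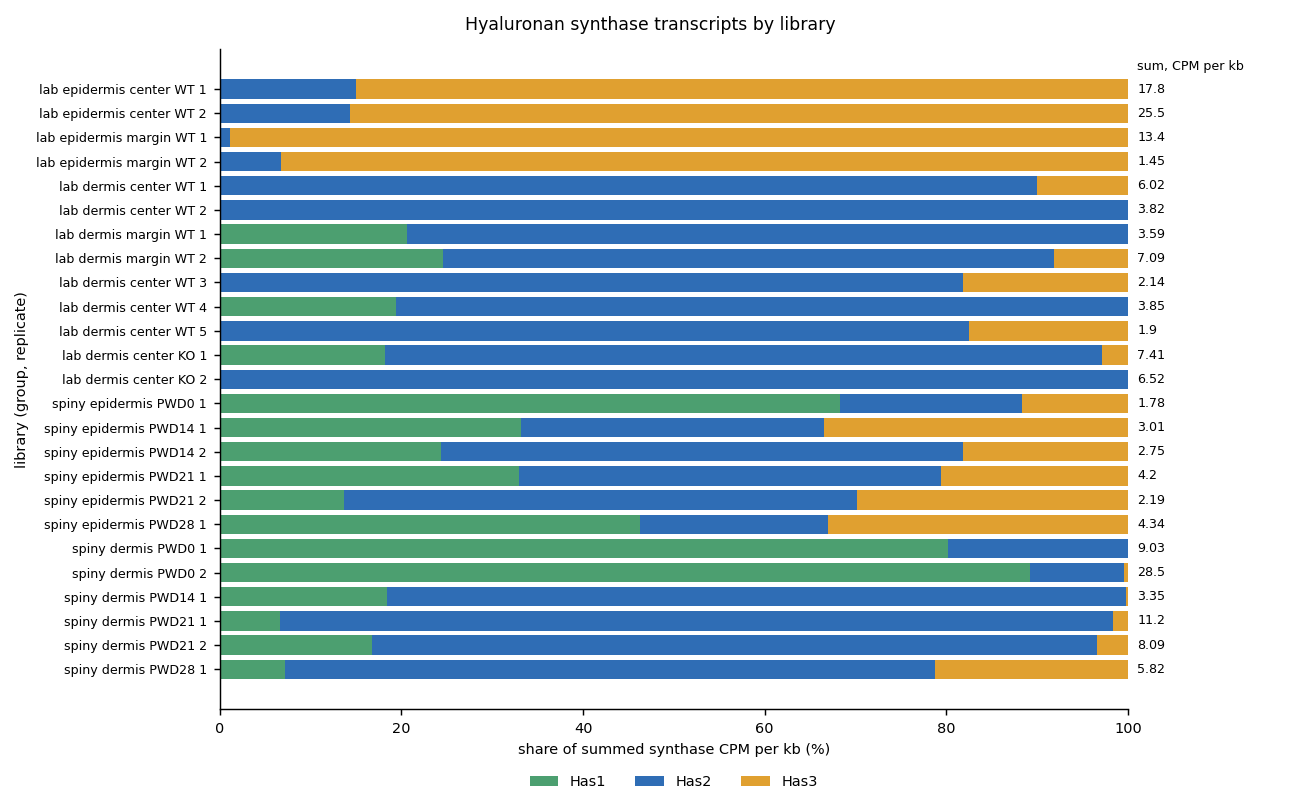
Share of Has1, Has2 and Has3 in the summed synthase CPM per kilobase of exon, 1 bar a library, with the sum in CPM per kb at the right end of each bar. Has3 fills the laboratory mouse epidermis bars, Has2 most of the laboratory mouse dermis bars, and Has1 the 2 spiny mouse dermis bars of PWD0, at 80.2% and 89.2%. Spiny mouse bars rest on reads aligned to the mouse genome and on mouse exon lengths.

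The hyaluronidase genes Hyal1 (chr9:107576950-107581699) and Hyal2 (chr9:107567873-107572778) are neighbours on the plus strand of chromosome 9. Hyal1 was higher in the epidermis in all 3 layer comparisons, so the 250 bases before its start site in the RefSeq annotation are shown, from chr9:107576700-107576949 of GRCm38.p6, plus strand, with a match to CCAAT and the pair of overlapping matches to GGGCGG, all read on the opposite strand, in capitals.
Hyal1: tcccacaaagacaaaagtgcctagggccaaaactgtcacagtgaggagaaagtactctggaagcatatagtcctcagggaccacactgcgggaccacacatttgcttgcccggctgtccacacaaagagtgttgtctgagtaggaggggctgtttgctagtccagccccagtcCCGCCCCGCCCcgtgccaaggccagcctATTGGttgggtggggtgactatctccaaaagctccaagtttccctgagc
The CCAAT match begins 49 bases before the start site and the GGGCGG matches 77 and 72 bases before it. Of 32851 windows of this length before annotated starts, 33.8% hold CCAAT and 32.7% hold GGGCGG on either strand, so both are frequent. The Hyal2 window, chr9:107568913-107569162, lies inside the gene span given above, so that its start site is not the first base of that span. It held 1 GGGCGG, 47 bases before that start site, and neither it nor the Hyal1 window held TATAAA (12.4% of windows) or TGANTCA (6.75%).

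Laboratory mouse Hyal1 was at 28.3 and 29.5 CPM in the center epidermis, 18.5 and 7.95 CPM in the margin epidermis, 3.44 and 5.41 CPM in the center dermis set beside them and 3.70 and 6.98 CPM in the margin dermis. The layers did not overlap. The epidermis was higher by 3.50 ± 0.31 on the log2 scale in the center (FDR 0.00137) and by 2.18 ± 0.68 in the margin (FDR 0.0474). The margin call was lost with RLE scaling (FDR 0.0533) or library size scaling alone (1.30, FDR 0.179), and without replicate 1 of the margin epidermis (1.35, FDR 0.112) or replicate 1 (FDR 0.215) or 2 (FDR 0.105) of the margin dermis. Both center epidermis libraries lay above both margin libraries, with a log2 fold change of 1.0 ± 0.47 (FDR 0.308). In the dermis Hyal1 was at 3.44 to 10.2 CPM in the wild-type center libraries and at 10.7 and 8.89 CPM in K14-Cre-Twist1, a log2 fold change of 0.31 (FDR 0.935).

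Spiny mouse Hyal1 was at 6.70 CPM at PWD0, then 11 and 11.5 at PWD14, 12.7 and 16.0 at PWD21, with 13.1 at PWD28 in the epidermis, and at 1.83 to 4.78 CPM in the 6 dermis libraries. All epidermis libraries lay above all dermis libraries, and at PWD21 the difference was 2.49 ± 0.28 (FDR 0.000206). Hyal1 was higher in the epidermis at PWD14 than at PWD0 by 1.46 ± 0.43 (FDR 0.0259). That call was lost with library size scaling alone (0.75, FDR 0.208) and without replicate 1 of PWD14 (FDR 0.0520), replicate 1 of the PWD21 epidermis (FDR 0.0648) or replicate 2 of it (FDR 0.0605).

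Hyal2 differed less between the layers. In the laboratory mouse it was at 36.4 and 39.3 CPM in the center epidermis, 4.39 and 12.9 CPM in the margin epidermis, 25.1 and 22.0 CPM in the center dermis set beside them and 24.5 and 24.0 CPM in the margin dermis. Hyal2 was thus above the dermis in the center epidermis, by 1.47 ± 0.20 on the log2 scale (FDR 0.00424, and 0.0505 without replicate 2 of the center epidermis), and below it in the margin epidermis by CPM, with a log2 fold change of -0.68 ± 0.57 (FDR 0.393). Center against margin epidermis gave 2.05 ± 0.50 (FDR 0.156), which DESeq2 called (adjusted p 0.00118). It was 1.52 without replicate 1 and 2.96 without replicate 2 of the margin. These fits hold 1 margin library and take no spread from the margin, so their calls are no support. In the K14-Cre-Twist1 dermis Hyal2 was at 34.1 and 13.8 CPM against 31.5 to 45.1 CPM in the 3 wild-type controls, a log2 fold change of -0.66 ± 0.47 (FDR 0.727). Without replicate 1 of K14-Cre-Twist1 it was -1.51, which then rests on the replicate with 35765 CPM of keratinocyte markers.

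In the spiny mouse epidermis Hyal2 was at 35.8 CPM at PWD0, then 54.3 and 60.8 at PWD14, 80.5 and 78.8 at PWD21, with 49.1 at PWD28, and in the dermis at 26.6 to 47.9 CPM over all days. The epidermis was higher at PWD21 by 1.0 ± 0.19 (FDR 0.00271). Hyal2 of the epidermis was higher at PWD14 than at PWD0 by 1.40 ± 0.30 (FDR 0.00602), and with library size scaling alone by 0.68 (FDR 0.118). Its CPM was lower at PWD14 than at PWD21, while the fold after TMM scaling was 0.08 on the log2 scale (FDR 0.705). Library size scaling alone shifted the median of all genes by -0.55 against TMM in this comparison.

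Cd44, on the minus strand of chr2:102811141-102901669, was the most abundant member per kilobase in all epidermis groups within each species. By reads aligned to the mouse genome, spiny mouse Cd44 ran from 79.8 CPM per kb at PWD0 to 129 CPM per kb at PWD21. Laboratory mouse Cd44, which is not compared with it, was at 121 CPM per kb in the center and 91.9 CPM per kb in the margin. In the laboratory mouse center epidermis the order below Cd44 was Has3 at 18.5, Hyal2 at 11.6, Hyal1 at 7.65, Has2 at 3.16 and Tnfaip6 at 0.864 CPM per kb, with no overlap between neighbours over 2 libraries. In the dermis of the laboratory mouse Cd44 and Tnfaip6 were at the top with overlapping ranges, at 46.7 and 43.8 CPM per kb in the wild-type center.

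The layers were apart for Cd44 in the laboratory mouse center and margin and in the spiny mouse. It was at 588 and 777 CPM in the center epidermis, 704 and 334 CPM in the margin epidermis, 379 and 369 CPM in the center dermis and 256 and 217 CPM in the margin dermis. The epidermis was higher by 1.65 ± 0.21 on the log2 scale in the center (FDR 0.00351) and by 1.99 ± 0.49 in the margin (FDR 0.0241), the latter not without replicate 1 (FDR 0.0611) or 2 (FDR 0.117) of the margin dermis or with library size scaling alone (1.14, FDR 0.0832). Center and margin epidermis overlapped, with 0.27 ± 0.44 (FDR 0.762). Without replicate 1 of the margin, which left 1 margin library, the value was 1.0. In the dermis both center libraries lay above both margin libraries, with 0.75 ± 0.19 (FDR 0.220, DESeq2 adjusted p 0.00279), and the other 3 wild-type center libraries were lower or within the center-margin range, at 134, 302 and 136 CPM. K14-Cre-Twist1 dermis held 313 and 144 CPM, a log2 fold change of 0.28 (FDR 0.909).

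In the spiny mouse epidermis Cd44 was at 451 CPM at PWD0, then 436 and 478 at PWD14, 694 and 766 at PWD21, with 515 at PWD28, and in the dermis at 121 to 215 CPM. The PWD21 difference between the layers was 2.17 ± 0.22 (FDR 0.000119). No day comparison of Cd44 was called, with 0.73 (FDR 0.0796) for PWD14 against PWD0 and -0.12 (FDR 0.516) for PWD14 against PWD21 in the epidermis, although the latter pair did not overlap in CPM and was called with library size scaling alone (-0.67, FDR 0.00536). Dermal Cd44 at PWD21 and PWD0 differed by -0.12 (FDR 0.798).

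Lyve1, on the minus strand of chr7:110850607-110862953, was higher in the dermis in both species. In the laboratory mouse it was at 0.103 and 0.199 CPM in the center epidermis, at 0 in both margin epidermis libraries, at 2.22 and 19.9 CPM in the center dermis set beside them and at 17.0 and 10.6 CPM in the margin dermis. Every dermis library lay above every epidermis library. Lyve1 was lower in the center epidermis, with a log2 fold change of -5.36 ± 1.34 (FDR 0.0264), and at least 162-fold lower in the margin epidermis (FDR 0.00418). The center call was lost without replicate 1 (FDR 0.123) or 2 (FDR 0.0947) of the epidermis or replicate 2 of the dermis (-3.08, FDR 0.0662). Over the 5 wild-type center dermis libraries it ranged from 2.22 to 21.4 CPM with a median of 9.95 CPM, and in K14-Cre-Twist1 it was at 7.72 and 8.16 CPM, a log2 fold change of -0.73 (FDR 0.819).

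In the spiny mouse dermis Lyve1 was at 5.64 and 23.8 CPM at PWD0, 0.235 at PWD14, 1.78 and 2.53 at PWD21, with 1.85 at PWD28. All 4 later libraries lay below both PWD0 libraries. It fell from PWD0 to PWD21 by 2.80 ± 0.62 on the log2 scale (FDR 0.0127, and 0.0939 or 0.0591 without replicate 1 or 2 of PWD21) and was lower at PWD14 than at PWD0, with a log2 fold change of -5.65 ± 1.34 (FDR 0.0137). The sum of 6 other lymphatic endothelial markers was 81.1 and 337 CPM at PWD0, 69.5 at PWD14, 87.5 and 148 at PWD21, with 56.0 at PWD28. Ccl21a was at 0 in 4 of these 6 libraries and Prox1 at 0 at PWD14. Summed macrophage markers were 354 and 466 CPM at PWD0, 363 at PWD14, 654 and 363 at PWD21, with 166 at PWD28. The part of either sum in the Lyve1 values was not tested. In the epidermis Lyve1 was at 0 to 0.177 CPM, and at PWD21 it was lower than in the dermis, with a log2 fold change of -4.10 ± 0.81 (FDR 0.00340).

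Tnfaip6 is on the plus strand of chr2:52038113-52056681, and its protein is known as a product of inflammatory signalling. It was lower in the epidermis in all 3 layer comparisons, so the 250 bases before its start site are shown as well, from chr2:52037863-52038112 of GRCm38.p6, plus strand, with matches to GGGCGG, to the letters CCAAT and to the AP-1 letters TGANTCA, on either strand, in capitals.
Tnfaip6: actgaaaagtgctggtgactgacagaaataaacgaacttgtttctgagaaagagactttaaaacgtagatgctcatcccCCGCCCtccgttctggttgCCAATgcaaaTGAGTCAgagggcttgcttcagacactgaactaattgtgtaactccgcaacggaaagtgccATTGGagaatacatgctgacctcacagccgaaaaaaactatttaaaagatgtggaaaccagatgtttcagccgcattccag
From the far end the capitals are GGGCGG on the opposite strand 171 bases before the start, CCAAT at 152, TGANTCA at 142 and CCAAT on the opposite strand at 81. TGANTCA, the letters bound by AP-1 factors, occurs in 6.75% of all windows and in none of the other 4 member windows. The window also held 2 matches to CANNTG, the E-box letters that Twist1 and other basic helix-loop-helix factors bind, as do 66.2% of all windows. These are not capitalized, except that 1 of them ends in the first 2 bases of the TGANTCA match. RefSeq windows were at hand for 5 of the 8 members, and the Has1 window held 1 CCAAT and 2 CANNTG while the Cd44 window held no match. Like that of Hyal2, the Has1 window (chr17:17855189-17855438) lies inside the gene span given above. In the GENCODE annotation some transcripts of Tnfaip6, Hyal1 and Has1 begin inside these windows.

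Laboratory mouse Tnfaip6 was at 1.71 and 1.25 CPM in the center epidermis, 0 and 0.104 CPM in the margin epidermis, 113 and 163 CPM in the center dermis set beside them and 78.3 and 69.3 CPM in the margin dermis. Every dermis library lay far above every epidermis library. The epidermis was lower, with log2 fold changes of -5.74 ± 0.30 in the center (FDR 0.000506) and -9.25 ± 0.85 in the margin (FDR 0.00165), and both calls held in every alternative run. In the epidermis the center libraries lay above the margin libraries, with 4.56 ± 1.56 (FDR 0.211), which was called by DESeq2 (adjusted p 0.0322). The value was 3.77 without replicate 1 and 9.26 without replicate 2 of the margin, in fits that take no spread from the margin. Fibroblast markers were higher in the same center epidermis libraries, as given above for Has2.

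In the dermis the center libraries also lay above the margin libraries, with 0.98 ± 0.23 (FDR 0.201), which DESeq2 called (adjusted p 0.00867). Without replicate 1 of the center, which left 1 center library, the value was 1.19. The other 3 wild-type center libraries were at 37.7, 22.4 and 39.2 CPM, below both margin libraries, and with all 5 the difference was 0.16. K14-Cre-Twist1 dermis held 74.9 and 11.5 CPM, on either side of these controls, with a log2 fold change of 0.40 ± 0.75 (FDR 0.916), of -1.58 without replicate 1, 1.21 without replicate 2 and -0.71 against all 5 wild-type libraries. The epidermis center-margin difference minus that of the dermis was 3.45 ± 0.76 (FDR 0.0558). It was 2.90 without replicate 1 and 8.09 without replicate 2 of the margin epidermis, each with 1 library left in that group.

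In the spiny mouse dermis Tnfaip6 was at 25.8 and 53.1 CPM at PWD0, 96.6 at PWD14, 59.0 and 65.8 at PWD21, with 35.8 at PWD28. It was higher at PWD14 than at PWD0 by 1.55 ± 0.37 on the log2 scale (FDR 0.0140). PWD21 against PWD0 gave 0.59 ± 0.32 (FDR 0.202), or 1.05 without replicate 2 of PWD0, which left 1 PWD0 library. In the epidermis it was at 7.36 CPM at PWD0, then 7.67 and 8.23 at PWD14, 7.12 and 4.62 at PWD21, with 12 at PWD28, the highest in the single PWD28 library. PWD14 was higher than PWD21 by 0.97 ± 0.32 (FDR 0.0343), a call that was lost without replicate 2 of PWD21 (0.68, FDR 0.339), with library size scaling alone (0.42, FDR 0.285) and with all spiny mouse libraries in 1 fit (FDR 0.0668). At PWD21 Tnfaip6 was lower in the epidermis than in the dermis, with a log2 fold change of -3.26 ± 0.30 (FDR 7.07e-05).

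Beyond the members, 36 other genes of the pathway had rows in the files, those of UDP-sugar precursor enzymes, other degrading enzymes, other receptors, hyaluronan-binding matrix and heavy chain genes, and Has2os. Between the layers, 12 were lower and 3 higher in the epidermis of 22 tested in the laboratory mouse center (24.9% and 29.7% of all genes), 14 lower and 0 higher of 23 in the margin (21.8% and 17.8%), and 17 lower and 3 higher of 26 in the spiny mouse at PWD21 (33.2% and 29.1%). Their median log2 fold changes were -1.60, -2.52 and -2.28, beside 0.05, -0.17 and -0.06 over all genes. Of the hyaluronan-binding matrix and heavy chain genes 4 of 5, 6 of 7 and 7 of 9 tested were lower in the epidermis and 0 higher, and of the UDP-sugar enzymes 3, 4 and 5 of 7 were lower and 0 higher, while of the other degrading enzymes 2 were higher and 3 lower of 7 in the center, 0 higher and 3 lower of 6 in the margin and 3 higher and 3 lower of 7 in the spiny mouse. In the laboratory mouse center Vcan, the large hyaluronan-binding proteoglycan versican, was at 31.8 ± 5.62 CPM (SD, n = 2) in the epidermis and 806 ± 177 CPM in the dermis (-3.89 ± 0.28, FDR 0.000868), and Itih5, which encodes a heavy chain family protein, at 6.74 ± 0.550 and 323 ± 49.6 CPM (-4.79 ± 0.18, FDR 0.000440). Ptx3, a pentraxin that binds TSG-6 and the heavy chains, was at 1.63 ± 0.305 and 91.3 ± 7.93 CPM (-5.03 ± 0.26, FDR 0.000500). The receptor gene Layn was at 0.775 ± 0.0550 and 25.4 ± 8.57 CPM (-4.23 ± 0.43, FDR 0.00191). Acan, the proteoglycan aggrecan, was at 0 in both epidermis libraries and at 7.94 ± 9.31 CPM in the dermis. By that widely spread mean it was at least 146-fold lower in the epidermis (FDR 0.0256). The hyaluronidase-like gene Hyal4 was at 4.67 ± 0.310 CPM in the epidermis, 0 in both dermis libraries and at least 30.2-fold higher in the epidermis (FDR 0.00567).

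The same direction held for Ptx3, Layn and Vcan in the laboratory mouse margin and for Ptx3, Itih5, Acan and Layn in the spiny mouse at PWD21. In the margin Vcan was at 6.41 ± 1.11 CPM in the epidermis and 763 ± 9.77 CPM in the dermis (-6.05 ± 0.39, FDR 0.00121), Ptx3 differed by -9.31 ± 1.0 (FDR 0.00217) and Layn by -6.30 ± 1.31 (FDR 0.0147). Gfpt2, an enzyme of the UDP-sugar route, was at 0.139 ± 0.196 and 33.0 ± 4.77 CPM there (-6.88 ± 1.20, FDR 0.00860), while Hapln3 and Itih2 were at 0 in the margin epidermis and at least 36.0-fold and 32.4-fold lower. Spiny mouse Ptx3 was at 0.424 ± 0.195 CPM in the epidermis and 110 ± 3.67 CPM in the dermis (-7.77 ± 0.34, FDR 5.57e-06). The scavenger receptor gene Stab1, listed here among the other receptors, was at 0.405 ± 0.154 and 22.2 ± 1.28 CPM (-5.72 ± 0.36, FDR 1.29e-05), and Itih3 was at least 21.3-fold lower in the epidermis.

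Within the spiny mouse dermis, of 26 pathway genes tested between PWD21 and PWD0, 11 were higher at PWD21 (11.9% of all genes) and 2 lower (13.9%), with a median log2 fold change of 0.37 beside 0.03 over all genes. Of 31 tested between PWD14 and PWD0, 7 were higher (10.9%) and 1 lower (13.1%), with a median of 0.36 beside -0.06. Acan was at 0.485 ± 0.0624 CPM at PWD0, 24.4 at PWD14 and 33.1 ± 22.4 at PWD21, differences of 5.88 ± 0.73 (FDR 0.000449) and 6.0 ± 0.72 (FDR 0.000841). Cemip, a protein needed for hyaluronan breakdown by fibroblasts, was at 0.955 ± 1.35 CPM at PWD0, 25.1 at PWD14 and 9.42 ± 3.64 at PWD21 (4.87 ± 0.69, FDR 0.000923, and 3.17 ± 0.88, FDR 0.0302). Hapln3, a link protein, rose from 1.06 ± 0.998 to 12.1 ± 3.56 CPM at PWD21 (3.39 ± 0.63, FDR 0.00601). The link protein genes Hapln1 and Hapln2 fell over the same interval, from 2.48 ± 1.27 to 0.321 ± 0.197 CPM (-2.95 ± 0.81, FDR 0.0289) and from 2.53 ± 0.665 to 0.0228 ± 0.0322 CPM (-6.75 ± 1.16, FDR 0.00434). Itih5 was at 26.2 ± 8.41 CPM at PWD0 and 146 ± 15.6 CPM at PWD21 (2.39 ± 0.30, FDR 0.000956), and at PWD14 Ptx3 was at 131 CPM against 24.4 ± 9.94 at PWD0 (2.64 ± 0.46, FDR 0.00297) and Hexa, a lysosomal hexosaminidase subunit, at 161 against 56.9 ± 1.32 CPM (1.72 ± 0.26, FDR 0.00133).

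Within the spiny mouse epidermis 3 pathway genes were higher (15.5% of all genes) and 3 lower (18.3%) of 31 at PWD14 against PWD0, and 4 higher (22.3%) and 4 lower (22.1%) of 16 at PWD14 against PWD21. Cemip was at 13.7 CPM at PWD0 and 47.7 ± 3.91 at PWD14 (2.52 ± 0.64, FDR 0.0130), and Ugdh, which makes UDP-glucuronate, at 25.5 and 3.71 ± 2.07 CPM (-2.06 ± 0.38, FDR 0.00311) and 17.7 ± 1.72 at PWD21 (-1.70 ± 0.36 for PWD14 against PWD21, FDR 0.00527). Vcan was at 4.18 ± 0.218 CPM at PWD14 and 25.8 ± 0.905 at PWD21 (-2.07 ± 0.24, FDR 0.000447). For the laboratory mouse edgeR called 0 pathway genes between center and margin in either layer or between genotypes, with 10 of 21, 2 of 25 and 6 of 28 tested at an unadjusted p under 0.05, beside 20.4%, 13.2% and 8.32% of all genes. DESeq2 called 9, 2 and 4 of them, beside 11.1%, 5.02% and 5.56%. The epidermis center-margin difference minus that of the dermis was called for 3 of 27 (3.29% of all genes in either direction), all higher, namely Hexa, Vcan and Gfpt2, which were chosen after their values were seen.

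Genes whose log2(CPM + 1) followed a member most closely over the 13 laboratory mouse libraries were listed as a description, drawn from the 13969 genes whose mean was 1 CPM or more. For Tnfaip6 they were Tmem132e, Rian and Nnmt, each with a Pearson r of 0.99, and over the 12 spiny mouse libraries their r was 0.82, 0.72 and 0.94. For Has2 they were Snn, Tnfrsf12a and Sptlc2, at 0.94, 0.93 and 0.92, with 0.37, -0.26 and -0.63 in the spiny mouse. For Has3 they were Cdhr1, Areg and Ttpa, at 0.95, 0.95 and 0.94, with 0.59, 0.70 and 0.24. Lyve1 was followed by Fgfrl1, Prr5 and Dact3 at 0.98, 0.98 and 0.97, with 0.67, 0.51 and 0.64. For Hyal1 they were Ankrd13a, Kctd11 and Akt2 at 0.92, 0.90 and 0.90, with 0.33, 0.87 and -0.78, for Hyal2 Ap2a1, Ppp2r1a and Dda1 at 0.96, 0.95 and 0.93, with -0.48, 0.62 and -0.43, and for Cd44 Shroom3, Fam103a1 and Gp1bb at 0.89, 0.89 and 0.88, with 0.77, 0.26 and 0.83. Has1 had a mean below 1 CPM in the laboratory mouse and was not matched. The libraries behind each r fall into 2 layers, which any pair of layer-biased genes shares.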

How the data were processed

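Gene counts were analysed for 25 RNA-seq libraries, 13 of laboratory mouse and 12 of spiny mouse. The values deposited by the authors are raw, unnormalized counts under gene symbols. Per the study's methods they aligned reads to mm10 with STAR and counted them with htseq-count (HTSeq 0.6.0) on RefSeq genes. The submitters' processing notes give STAR 2.4.1d, and the strand option is not given in the sources used here. The 5 summary lines of each file were left out of library sizes. CPM were computed from the 24500 gene rows without TMM factors. Tests used edgeR 4.0.16 in R 4.3.3 with TMM, filterByExpr, its quasi-likelihood F test and Benjamini-Hochberg adjusted p-values over every gene tested, with the groups compared as the only samples and no covariate, except that comparisons with a day of 1 library were fitted on all 12 spiny mouse libraries. Fits were also run on counts simulated with the spread estimated from the same libraries, which does not test the calls given here. Standard errors were derived from each log2 fold change and its F statistic (absolute change divided by the root of F).

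The members and lists were chosen with earlier results of these data known. Named were all 8 members in every comparison, Has2os, at most 6 other pathway genes a comparison (FDR under 0.05, groups not overlapping in CPM, a mean of at least 1 CPM, largest log2 fold change), and the 3 genes most alike to each member. Alternatives were RLE size factors, library size only, no low-count filter, DESeq2 1.42.0, the edgeR 3 estimate, 1 fit of a whole species, use of all 5 wild-type libraries of the wound center dermis and each library left out. Where an arm then held 1 library, it was assumed to vary like the other groups. Sequences came from RefSeq on GRCm38.p6, gene spans from RefSeq, and gene strands and exon lengths from GENCODE.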

Additional observations from a re-analysis of the deposited data

Results flagged for a closer look

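Has1 in the 5 wild-type wound center dermis libraries of the laboratory mouse had 1 library far from the others, replicate 4 at 1.56 CPM, while the other 4 held no read of the gene. Since the other 4 were at exactly 0, any read would have set the library apart, and the rate of about 1 in 20 groups that chance gives for such values does not apply to it. In all, 8 combinations of a gene and a group were looked at. The library belongs to the controls of the genotype comparison, in which Has1 was not called.

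The center-margin difference of Has2 was larger in laboratory mouse epidermis than in dermis by 4.35 on the log2 scale, by a test of the difference itself (edgeR's quasi-likelihood test, FDR 0.0154). The 2 center epidermis libraries were at 11.3 and 15.5 CPM and the 2 margin libraries at 0.624 and 0.416 CPM, whereas center and margin dermis overlapped. The layers differ in read type, paired-end against single-end, so that layer and read type cannot be told apart in the levels. The call was lost without replicate 2 of the center epidermis (FDR 0.0749) or replicate 2 of the margin dermis (FDR 0.0694).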

How the results depend on the processing

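Of 1066 refitted log2 fold changes of members, 946 kept their direction and side of the threshold, as did 112 of 141 member counts and 104 of 141 counts over all genes within 1.5 times. The planned edgeR 3 estimate is the default of the installed version and equals the fit reported. Its 83 fold changes, 11 member counts and 11 counts over all genes are among those kept and could not move. The edgeR 4 estimate was chosen after seeing the data. No paired analysis was possible because each library carries its own number and no label links libraries of different groups. The cause was not tested where a value moved. Library size scaling alone shifted the median of all genes by -0.78 in the center and -0.83 in the margin layer comparison, by -0.55 and -0.71 for spiny mouse epidermis PWD14 against PWD21 and PWD0, by -0.23 for spiny mouse dermis PWD14 against PWD0, by -0.12 for the spiny mouse layers and by 0.10 for center against margin epidermis. Members and genes called moved as follows. Epidermis center against margin went from 0 and 0 to 1 and 326 with no filter, 3 and 1511 with DESeq2, 1 and 176 with the edgeR 4 estimate, 1 and 422 with all libraries in 1 fit, and 1 to 6 and 178 to 8324 without 1 library. Dermis center against margin went from 0 and 54 to 3 and 738 with DESeq2, to 164, 125 and 2 genes with no filter, the edgeR 4 estimate and all libraries, and to 0 to 1 and 63 to 612 without 1 library. K14-Cre-Twist1 went from 0 and 2 to 1 and 787 with DESeq2, to 4, 8, 1 and 17 genes with no filter, the edgeR 4 estimate, all 5 wild-type libraries and all libraries, and to 0 to 1 and 0 to 3322 without 1 library. Without 1 library the layer comparisons gave 4062 to 10683 genes in the center, and 3 to 8 members and 2950 to 7487 genes in the margin. Spiny mouse epidermis PWD14 against PWD21 gave 2 members with library size only, 0 with all libraries, and 0 to 2 members and 3103 to 7006 genes without 1 library, and PWD14 against PWD0 gave 1 with library size only, 5 with DESeq2 and 2 to 5 without 1 library. Spiny mouse dermis PWD21 against PWD0 gave 1 to 5 members and 1372 to 5306 genes without 1 library. The difference between the layers' center-margin effects gave 2 members with no filter, 3 and 1125 genes with DESeq2, and 0 to 3 and 298 to 1646 without 1 library. Directions turned, all short of the threshold but for 1, as follows. With all 5 wild-type libraries dermis center against margin gave -0.11 for Has2 and 0.48 for Hyal1, K14-Cre-Twist1 gave -0.16 for Cd44 and -0.71 for Tnfaip6, and the layers' difference gave 0.16 for Cd44. With library size only Hyal2 gave -0.0446 in dermis center against margin, Has2 -0.55 in the center layers and Has1 -0.55 in spiny mouse epidermis PWD14 against PWD0, and PWD14 against PWD21 gave -0.0703, -0.30, -0.0282, -0.35 and -0.47 for Has1, Has2, Has3, Hyal1 and Hyal2, the last with an FDR of 0.0418. Without 1 library the ranges were -0.19 to 1.0 for Cd44 in epidermis center against margin, -8.26 to 8.44, -0.54 to 0.30, -0.0907 to 0.18 and -2.51 to 0.57 for Has3, Hyal1, Hyal2 and Lyve1 in dermis center against margin, and -6.63 to 2.50, -0.45 to 0.76 and -1.58 to 1.21 for Has1, Cd44 and Tnfaip6 in K14-Cre-Twist1. They were -0.21 to 2.02, -0.10 to 0.61 and -0.11 to 0.98 for Has1, Has2 and Has3 in PWD14 against PWD21, -0.25 to 0.0407 for Cd44 in dermis PWD21 against PWD0, -1.75 to 0.56 for Has1 in the spiny mouse layers, -3.44 to 3.30 for Has3 in dermis PWD14 against PWD0, -0.18 to 0.47 for Has1 in epidermis PWD14 against PWD0, and -7.63 to 9.85 and -0.78 to 0.36 for Has3 and Cd44 in the layers' difference. Has1, Has3, Lyve1 and Tnfaip6 were at or under 3 counts in some libraries, and the part of depth in this was not tested.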
